A study of Homo sapiens with 4 samples.

Results

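U5 is a small nuclear RNA (snRNA) of the spliceosome, and the human genome carries it as several gene variants and many pseudogene copies. All 30 genes in the count files whose symbol begins with RNU5 followed by A, B, D, E or F were taken, out of 51714 gene identifiers. Of these 30, 7 had at least 1 read in any of the 4 libraries: the variant genes RNU5A-1, RNU5B-1, RNU5D-1, RNU5E-1 and RNU5F-1, and the numbered copies RNU5A-8P and RNU5E-4P. The other 23, all numbered copies annotated as pseudogenes by their symbol, had 0 reads in every library. The family was chosen by its counts in R1810A against WT cells, which earlier results of these files had shown to be higher in R1810A. That contrast is therefore given for the U5 genes as a description, and where calls of the fit over all genes are counted for them, nothing is read from the count.

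RNA came from Raji, an Epstein-Barr virus positive human line of B cells, established from a Burkitt lymphoma. In the R1810A group (2 libraries) the cells held a vector for RPB1, the catalytic subunit of RNA polymerase II, in a form with an HA tag, resistance to α-amanitin and alanine in place of an arginine of its C-terminal domain (R1810A). In the WT group (2 libraries) the same kind of vector held RPB1 with that arginine intact. Both groups were polyclonal batches selected with G418 and then kept in α-amanitin, which inhibits the cells' own polymerase, so neither group is untreated Raji. The study asked whether gene expression is altered when that arginine cannot be methylated. The labels do not tell whether replicate libraries derive from separate cultures. Any p-value thus measures the spread between these 4 libraries, and that spread may be technical.

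U5 snRNA is made by RNA polymerase II from a special promoter bound by the SNAPc complex, and its 3′ end is formed by the Integrator complex rather than by polyadenylation. The precursor is exported, receives a ring of Sm proteins with the help of the SMN complex, is trimmed and gets a trimethylated cap, and returns to the nucleus. There it joins PRPF8, SNRNP200, EFTUD2 and other proteins in the U5 snRNP. Its loop 1 contacts the exon ends during both steps of splicing, and its single-stranded Sm site holds the Sm ring.

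How alike the copies are sets how far a read can be assigned to one of them. Their transcripts in GENCODE release 29 were compared over the whole length and searched for the conserved core of loop 1 (GCCTTTTAC) and for the Sm site (AATTTTTTG), on both strands.

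All 7 copies hold the loop core, and 6 hold the Sm motif, the exception being RNU5E-4P. Among the 23 copies without reads, 7 hold the loop core, 8 the Sm motif and 3 both (RNU5E-6P, RNU5E-7P and RNU5E-9P). So an intact loop and Sm motif were present in copies with reads and also in 3 copies at 0 reads. No member held either motif on the reverse strand. Of 3372 GENCODE transcripts of other genes with 100 to 130 bases, 0 hold the loop core and 4 (0.119%) the Sm motif on the transcript strand, and 0 and 2 on the reverse strand. RNU5A-8P, though named as a pseudogene, is 83.1% identical to RNU5A-1 over the alignment, close to RNU5F-1 (83.9%) and RNU5D-1 (81.9%). Copies without reads ran from 40.5% to 83.8%, so this identity does not set RNU5A-8P apart from the nearest of them.

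**Figure D1:**
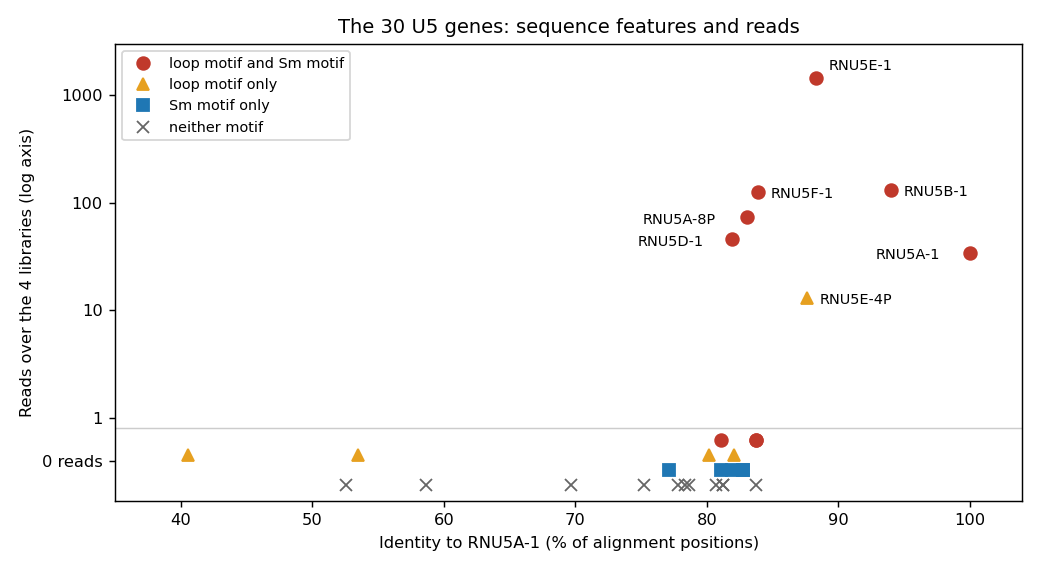
Each point is one of the 30 U5 genes, with its identity to RNU5A-1 in percent of alignment positions on the horizontal axis and its reads summed over the 4 libraries on a logarithmic vertical axis; points under the grey line had 0 reads and are stacked by motif. The 7 genes with reads lie at 81.9% identity or above, as do some genes with 0 reads, and 3 genes with both motifs have 0 reads (some points coincide).

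RNU5A-1 and RNU5B-1 were the most alike of the 7, identical at 93.97% of alignment positions. RNU5E-1 was 88.3% identical to RNU5A-1, 87.5% to RNU5B-1 and 83.3% to RNU5D-1, and 79.0% to RNU5F-1 and 77.7% to RNU5A-8P. For windows of 36 bases, 53 of 81 in RNU5A-1 and 53 of 81 in RNU5B-1 occur in no other gene's transcript. The same holds for 55 of 85 windows in RNU5E-1, 51 of 81 in RNU5D-1, 76 of 82 in RNU5F-1, 68 of 79 in RNU5A-8P and 73 of 85 in RNU5E-4P, leaving aside genes annotated over a U5 gene's own position. The window of 36 bases is only an illustration, since neither the read length nor the handling of multiply matching reads is given in the sources used here. With windows of 25 bases the share found in no other gene runs from 50% (RNU5A-1) to 81.7% (RNU5F-1). Counts of single copies are uncertain to the extent that shared reads were dropped, divided or counted for several copies. Dividing shared reads within the family leaves its sum unchanged, whereas dropping them lowers it and repeated counting raises it. The sum over the family is therefore uncertain as well.

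In the annotation used for names, which is of a later genome build than the hg19 alignment, RNU5A-1 and RNU5B-1 lie on chromosome 15 on the same strand with 1 annotated gene between them. RNU5D-1 and RNU5F-1 are neighbours on chromosome 1 on one strand. RNU5E-1 and RNU5E-4P are neighbours elsewhere on chromosome 1, on opposite strands, and RNU5A-8P is on chromosome 1 as well. RNU5F-1, RNU5A-8P and RNU5A-1 each lie in an intron of a protein-coding gene on the opposite strand. Since the use of strand in counting is not given, intronic reads of these hosts and reads of the U5 copies cannot be told apart. HHAT, around RNU5A-8P, had 31 and 20 reads in the R1810A libraries and 30 and 34 in the WT libraries. ARMH1, around RNU5F-1, had 10 and 11 reads in R1810A and 14 and 28 in WT, and PARP16, around RNU5A-1, had 42 and 43 in R1810A and 53 and 61 in WT. None of these 3 hosts was higher in both R1810A libraries than in both WT libraries. Such gene counts do not show the reads at the U5 positions, so the part of host reads in the U5 counts was not tested. RNU5E-1, the copy with most reads, overlaps the lincRNA AL021155.2 on the same strand, and RNU5E-4P overlaps it on the opposite strand. AL021155.2 was not among the deposited gene identifiers, so its part in the counts of RNU5E-1 and RNU5E-4P was not tested.

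Summed gene counts ran from 2081636 to 2991959 per library, and 16414 to 17824 genes had reads. POLR2A, the gene of the replaced subunit, had 1987 and 2170 reads in R1810A and 1999 and 2567 in WT, and since both groups make recombinant RPB1 these counts do not check the labels. The 7 B cell markers looked up (MS4A1, CD79A, CD79B, CD22, PAX5, CD74 and BLK) had reads in every library. Of 10 markers of other cell types in the files, 2 to 4 had reads, summing to 7.09 and 9.61 CPM (here scaled by the summed gene counts) in R1810A and 5.16 and 7.69 CPM in WT. The B cell markers summed to 6536 and 7423 CPM in R1810A and 7090 and 5682 CPM in WT. CD3D, EPCAM, KRT8, COL1A2 and HBB were at 0 in all 4 libraries, while LYZ and COL1A1 had reads in each, LYZ up to 17 and COL1A1 13 in R1810A replicate 2. CD14, ALB and CD3E had reads in some libraries, CD3E only in WT replicate 2.

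RNU5E-1 (ENSG00000199347) carried most U5 reads in every library. It had 865 and 391 reads in the R1810A libraries, replicates 1 and 2, against 88 and 117 in the WT libraries. Per length and depth that is 1794 and 789 RPKM (reads scaled by gene length and total reads of the library, the deposited unit) in R1810A and 179 and 180 RPKM in WT. The R1810A values did not overlap the WT values, and R1810A replicate 1 lay far above replicate 2, while the WT libraries were almost equal. By RPKM, RNU5E-1 stood at rank 7 and rank 16 among all genes with reads in the R1810A libraries and at rank 114 and rank 106 in the WT libraries. Its log2 fold change, R1810A over WT, was 2.96 in the edgeR fit over all genes.

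RNU5B-1 (ENSG00000200156) and RNU5A-1 (ENSG00000199568), the variants usually taken as the standard human U5 sequences, were counted at a far lower level than RNU5E-1. RNU5B-1 had 92 and 23 reads in R1810A (197 and 48.0 RPKM) and 10 and 6 in WT (21.0 and 9.57 RPKM). The groups did not overlap, but the R1810A libraries differed from each other more than R1810A replicate 2 did from WT replicate 1. The log2 fold change of RNU5B-1 was 3.16, and 1.83 without R1810A replicate 1. RNU5A-1 had 22 and 6 reads in R1810A (47.2 and 12.5 RPKM) and 4 and 2 in WT (8.42 and 3.19 RPKM). With so few reads it did not pass the filter of the fit, and its ratio of reads per library size was 5.91 with a 95% counting interval of 2.40 to 17.5.

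RNU5F-1 and RNU5D-1 are sequence variants of U5 whose genes adjoin. RNU5F-1 (ENSG00000199377) had 54 and 63 reads in R1810A (115 and 130 RPKM) and 5 and 3 in WT (10.4 and 4.74 RPKM). It was the only one of the 7 copies without higher reads per library size in R1810A replicate 1 than in replicate 2. The log2 fold change was 4.16, and ran from 3.64 to 4.74 when a library was left out. RNU5D-1 (ENSG00000200169) had 36 and 9 reads in R1810A (77.3 and 18.8 RPKM), whereas WT had 0 and 1 (0 and 1.59 RPKM). The WT level rests on a single read, so the ratio per library size of 57.0 has a counting interval of 9.72 to 2301.

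The numbered copies followed the same direction. RNU5A-8P (ENSG00000200972) had 49 and 21 reads in R1810A (107 and 44.6 RPKM) and 2 and 2 in WT (4.28 and 3.25 RPKM). Its log2 fold change was 4.38 in the fit, or 3.46 with a prior count of 2 in place of the default. The ratio of reads per library size was 22.2, with a counting interval of 8.28 to 83.6 that shows how little the 4 WT reads fix its size. RNU5E-4P (ENSG00000201801) had 11 and 2 reads in R1810A and 0 in both WT libraries. Set against 3 counts over the WT group, the limit that a count of 0 allows, its ratio of reads per library size was 5.49. This ratio takes the 13 R1810A reads as exact, so it is not a lower limit of the fold. Intervals and limits cover counting error only.

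**Figure D2:**
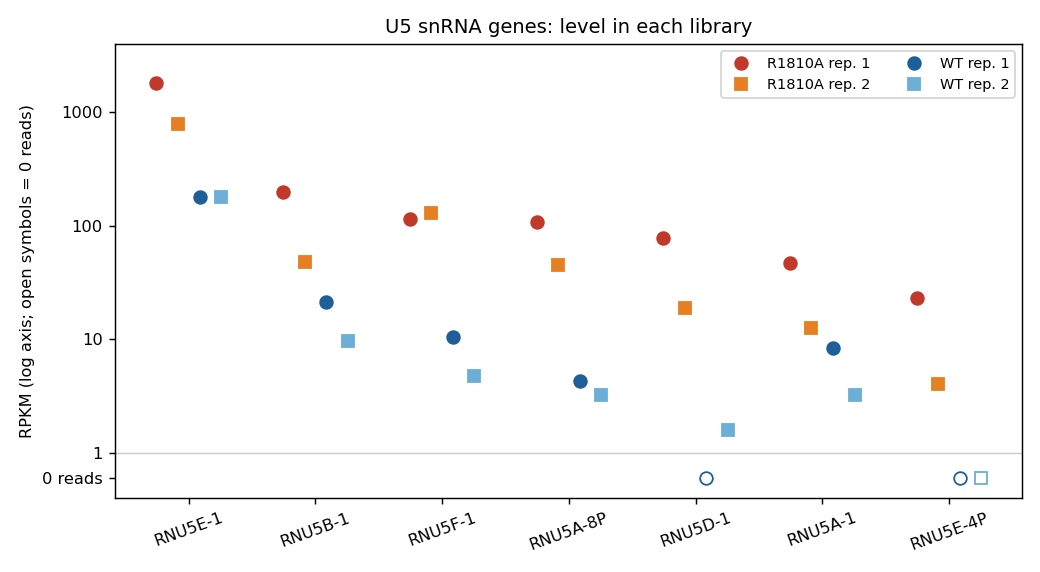
RPKM of the 7 U5 genes with reads in each library, on a logarithmic axis, with R1810A libraries left of WT libraries and open symbols for 0 reads. Both R1810A libraries lie above both WT libraries for every gene shown, from RNU5E-1 at 789 and 1794 RPKM in R1810A to RNU5E-4P at 0 reads in WT.

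In the R1810A libraries the order of the mean levels was RNU5E-1 (1292 ± 711 RPKM, SD, n = 2), RNU5B-1 (123 ± 106), RNU5F-1 (123 ± 10.99), RNU5A-8P (75.8 ± 44.1), RNU5D-1 (48.0 ± 41.3), RNU5A-1 (29.9 ± 24.5) and RNU5E-4P (13.4 ± 13.3). In WT it was RNU5E-1 (180 ± 1.00 RPKM), RNU5B-1 (15.3 ± 8.11), RNU5F-1 (7.59 ± 4.02), RNU5A-1 (5.80 ± 3.70), RNU5A-8P (3.76 ± 0.732) and RNU5D-1 (0.797 ± 1.13), with RNU5E-4P at 0. RNU5E-1 stood clear of the rest in both groups. Among the others, neighbours in this order overlapped in range, except RNU5F-1 and RNU5A-8P in R1810A and RNU5A-8P and RNU5D-1 in WT. RNU5A-8P came before RNU5A-1 in R1810A and after it in WT, but the ranges of these copies overlap in both groups.

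Summed over the family, U5 had 1129 and 515 reads in the R1810A libraries and 109 and 131 in the WT libraries. That is 0.0533% (exact Clopper-Pearson interval 0.0503 to 0.0565%) and 0.0247% (0.0226 to 0.0270%) of gene counts in R1810A, and 0.00469% (0.00385 to 0.00565%) and 0.00438% (0.00366 to 0.00520%) in WT. The lower of the R1810A libraries lay above the upper WT interval, and the R1810A libraries differed from each other beyond counting error. The group means were 0.0390 ± 0.0202% in R1810A and 0.00453 ± 0.000218% in WT (SD, n = 2). Fitted as 1 gene, the sum had a log2 fold change of 3.11, 8.66-fold, with 2.44 without R1810A replicate 1 and 3.58 without replicate 2. It was 3.06 over the 5 variant genes alone and 3.79 without RNU5E-1. In bulk RNA, more U5 per cell and more cells rich in U5 cannot be told apart. Whether the difference arose in the cells or in the making of the libraries was not tested.

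**Figure D3:**
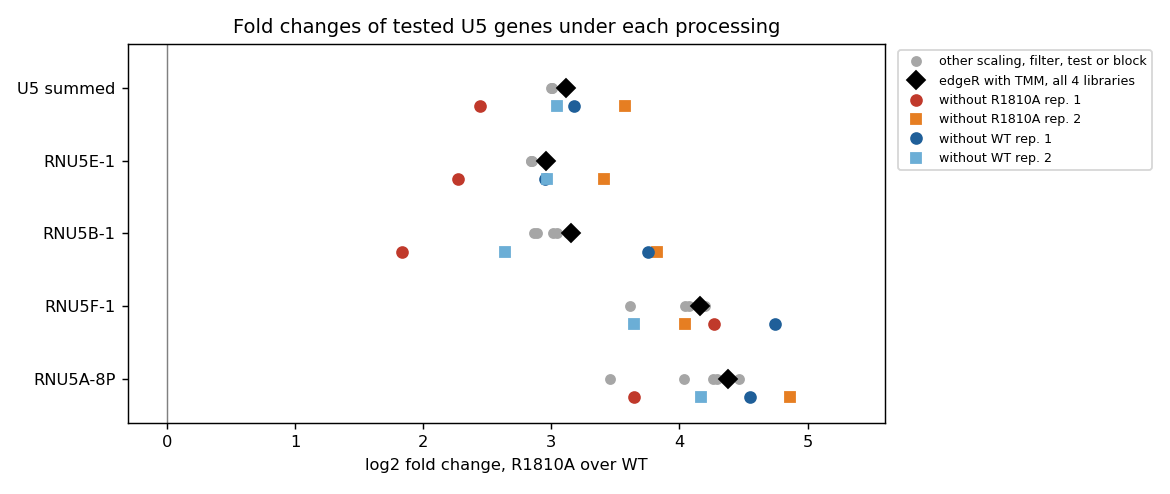
Log2 fold change, R1810A over WT, of the U5 sum and of the 4 U5 genes that passed the filter: black diamonds are the edgeR fit on all libraries, grey points other scalings, filters, tests, prior counts or a replicate block, and coloured points the fit without the library named. All points lie right of 0, the lowest at 1.83 for RNU5B-1 without R1810A replicate 1.

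Only 4 of the 30 U5 genes passed the filter on low counts. RNU5E-1 had enough reads in both groups, whereas RNU5B-1, RNU5F-1 and RNU5A-8P passed only through the R1810A libraries, where they are high, and so had to differ. Of these 4, all chosen by this contrast, RNU5E-1, RNU5F-1 and RNU5A-8P were called higher at an adjusted p under 0.05 by edgeR's quasi-likelihood test, where 0.347% of the 10674 genes tested were called higher. RNU5B-1 was not called. In CPM (counts scaled to a common library size) the R1810A libraries were both above the WT libraries for all 7 U5 genes with reads, against 16.5% of the 21612 genes with at least 1 read. Nothing is read from either count, because this contrast led to the choice of the family. None of the 4 was called without WT replicate 2, although its removal left the log2 fold change of RNU5E-1 at 2.96. In that fit the spread comes from the R1810A pair alone. The spread also comes from the R1810A pair alone without WT replicate 1, where the log2 fold change of RNU5E-1 was 2.95. The cause of the missing calls without WT replicate 2 was not tested.

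The division of U5 reads among the copies is a description that does not depend on library scaling. RNU5E-1 took 76.6% (interval 74.0 to 79.1%) and 75.9% (71.99 to 79.6%) of U5 reads in the R1810A libraries and 80.7% (72.1 to 87.7%) and 89.3% (82.7 to 94.0%) in the WT libraries. The intervals of both R1810A libraries overlap that of WT replicate 1 and lie below that of WT replicate 2. The mean share was 76.3 ± 0.491% in R1810A and 85.0 ± 6.07% in WT, a difference of -8.75 percentage points. Leaving out WT replicate 2 gave -4.46 points and leaving out WT replicate 1 gave -13.0 points. RNU5A-8P took 4.34% and 4.08% in R1810A and 1.83% and 1.53% in WT, where each WT value rests on 2 reads. RNU5B-1 took 8.15% and 4.47% in R1810A and 9.17% and 4.58% in WT, ranges that overlap.

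RNU5F-1 was divided differently between the R1810A libraries. It took 4.78% (3.61 to 6.19%) of U5 reads in R1810A replicate 1 and 12.2% (9.53 to 15.4%) in replicate 2, with 4.59% (1.51 to 10.4%) and 2.29% (0.475 to 6.55%) in the WT libraries. Reads per library size in R1810A replicate 1 over replicate 2 stood at 0.843 for RNU5F-1 (counting interval 0.575 to 1.23). The same ratio was 2.18 (1.93 to 2.46) for RNU5E-1, 3.93 (2.47 to 6.51) for RNU5B-1, 3.93 (1.86 to 9.29) for RNU5D-1, 3.61 (1.42 to 10.9) for RNU5A-1 and 2.29 (1.35 to 4.03) for RNU5A-8P. The interval of RNU5F-1 meets none of these 5, while that of RNU5E-4P, with 13 reads, is too wide to tell (1.18 to 50.2). For the U5 sum the ratio between the WT libraries, replicate 1 over 2, was 1.07 (0.822 to 1.39).

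**Figure D4:**
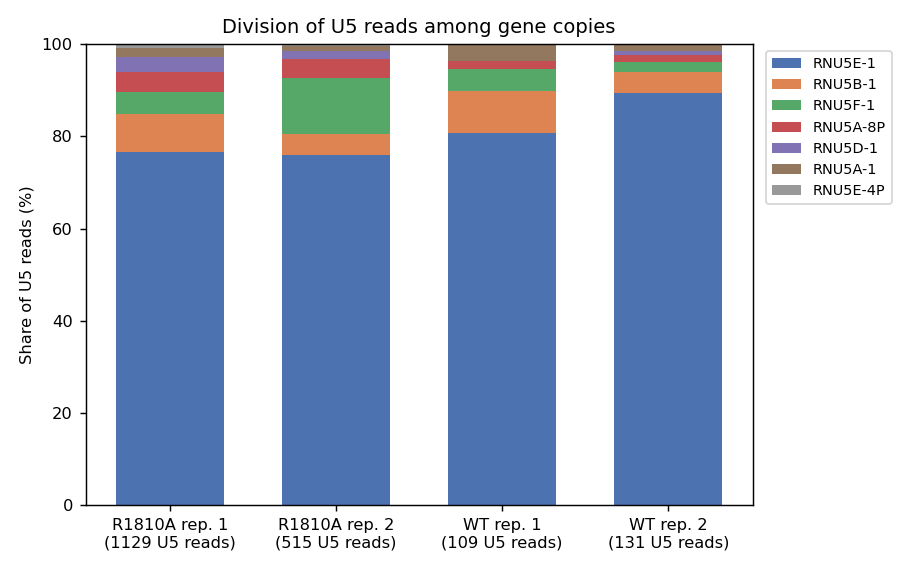
Share of each copy among the U5 reads of a library in percent, with the number of U5 reads under each bar. RNU5E-1 holds 75.9% to 89.3% in all 4 libraries, and RNU5F-1 holds 12.2% in R1810A replicate 2 against 4.78% or less in the other libraries.

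Other small RNA families, summed by symbol, are given beside U5 without a test of the difference. U2, U1 and U4 are made by RNA polymerase II like U5. The log2 fold change of U2 was 2.42 (1.56 to 2.96 when 1 library was omitted), that of U1 1.48 (0.89 to 1.94) and that of U4 1.45 (0.73 to 1.93). For families named for RNAs that RNA polymerase III makes, it was 1.16 for U6 (1.03 to 1.28), 1.16 for 7SL (0.93 to 1.46) and 1.03 for 7SK (0.88 to 1.21). It was 1.41 (0.99 to 1.75) for H/ACA snoRNAs (SNORA), 1.28 (0.96 to 1.55) for C/D snoRNAs (SNORD) and 0.53 (0.21 to 0.80) for small Cajal body RNAs (SCARNA). The ranges of U1 and U4 overlap those of U6, 7SL and 7SK, and the range of U2 lies above them. U5, at 2.44 to 3.58, had a higher value than each of these 9 families in each of these 4 fits, a description that the choice of U5 by this contrast favours. CPM in R1810A replicate 1 over replicate 2 was 2.19 for U5, 2.63 for U2, 2.30 for U4, 2.03 for U1, 1.68 for SNORA and 1.497 for SNORD. It was 1.19 for U6, 1.34 for 7SL and 1.06 for 7SK. U7 and the minor spliceosome RNAs U4atac, U6atac, U11 and U12 had 0 to 6 reads per library, too few to compare. The U6 sum held only 18 to 43 reads per library, spread over 82 of 1256 genes with that symbol. Reads fell on 108 of 440 genes for 7SL, 85 of 285 for 7SK, 25 of 126 for U1, 17 of 69 for U2 and 11 of 88 for U4. The part of pseudogene copies and of host genes in these sums was not tested, so the sums need not measure the named RNAs alone.

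Likeness of a gene's profile over the 4 libraries to that of the U5 sum was measured as the Euclidean distance between centred log2 CPM profiles, over 9428 genes with a mean count of at least 20. The 8 nearest genes were SCARNA8, ENSG00000206653 (which has no symbol here), RNU2-2P, SNORA23, SNORA33, SNORA31, SNORA55 and SNORD97, at distances of 0.191 to 0.848. SCARNA8, of the small Cajal body RNAs that guide modification of snRNAs, had 49 and 25 reads in R1810A and 4 and 4 in WT. RNU2-2P, a U2 gene copy, had 351 and 126 reads in R1810A and 36 and 53 in WT. Each of these profiles was high in R1810A replicate 1, lower in replicate 2 and lowest in the WT libraries.

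Genes of the proteins that make and use U5 were tested in the same edgeR fit. The 5 lists held 85 genes found in the files, of which 81 passed the filter, and 0 were called in either direction at an adjusted p under 0.05, where 0.356% of all genes tested were called. DESeq2 and limma-voom also called 0 of them. At an unadjusted p under 0.05, edgeR gave 3 higher and 2 lower, limma-voom 3 and 2, and DESeq2 0 and 0. With the deposited total reads as library size, edgeR gave 0 higher and 12 lower. Over all 10674 genes tested, edgeR gave 527 higher and 327 lower, limma-voom 553 and 321, and DESeq2 196 and 83. With the deposited total reads it gave 252 higher and 1144 lower over all genes, so that setting moved genes at large downwards. The median log2 fold change of each list lay between -0.08 and 0.11, beside -0.005 over all genes tested.

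The U5 snRNP proteins had a median log2 fold change of 0.04 in 11 tested genes, or -0.08 with the deposited total reads as library size. PRPF8, the large protein at the heart of the spliceosome that contacts U5 loop 1, had 1314 and 1270 reads in R1810A and 1086 and 1661 in WT. Scaled, PRPF8 stood at 621 ± 13.5 CPM in R1810A and 514 ± 54.5 CPM in WT (log2 fold change 0.27, SE 0.11, adjusted p = 0.588 with edgeR). PRPF6, which bridges U5 and U4/U6 in the tri-snRNP, stood at 101 ± 8.38 CPM in R1810A and 80.9 ± 9.48 CPM in WT (0.33, SE 0.14, adjusted p = 0.594). The helicase SNRNP200, which unwinds U4 from U6, stood at 283 ± 46.2 CPM in R1810A and 245 ± 7.67 CPM in WT (0.21, SE 0.13, adjusted p = 0.690). The GTPase EFTUD2 stood at 319 ± 10.8 CPM in R1810A and 321 ± 13.3 CPM in WT (-0.01, SE 0.11, adjusted p = 0.987).

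Genes of the Sm ring and its assembly had a median log2 fold change of 0.04 in 18 tested genes, or -0.08 with the total reads as library size. GEMIN2, a partner of SMN that holds the Sm proteins, stood at 10.8 ± 3.71 CPM in R1810A and 18.6 ± 2.82 CPM in WT (log2 fold change -0.80, SE 0.30, adjusted p = 0.523). WDR77, a partner of PRMT5 in Sm protein methylation, stood at 55.7 ± 0.126 CPM in R1810A and 73.7 ± 16.8 CPM in WT (-0.41, SE 0.17, adjusted p = 0.594). SMN1, which has a near-identical copy in the genome, and SNRPE did not pass the filter on low counts and were not tested.

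The promoter factors of snRNA genes had a median of -0.08 in 17 tested genes. The SNAPc subunits SNAPC4 and SNAPC1 stood on either side of 0, SNAPC4 at 52.6 ± 1.14 CPM in R1810A and 40.8 ± 1.19 CPM in WT (log2 fold change 0.37, SE 0.16, adjusted p = 0.594). SNAPC1 stood at 12.3 ± 3.08 CPM in R1810A and 18.1 ± 0.243 CPM in WT (-0.57, SE 0.27, adjusted p = 0.645). The list of 3′ end formation had a median of -0.04 in 18 genes, with the Integrator subunit INTS4 at -0.46 (SE 0.25, adjusted p = 0.662) and NELFA, of the pausing complex NELF, at 0.30 (SE 0.17, adjusted p = 0.672). The list of export, cap, import and trimming had a median of 0.11 in 17 genes, or -0.01 with the total reads as library size. COIL, the scaffold of Cajal bodies, stood at -0.82 (SE 0.39, adjusted p = 0.641) on 8 to 26 reads per library. The cap-binding gene NCBP2 stood at 0.24 (SE 0.13, adjusted p = 0.672).

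**Figure D5:**
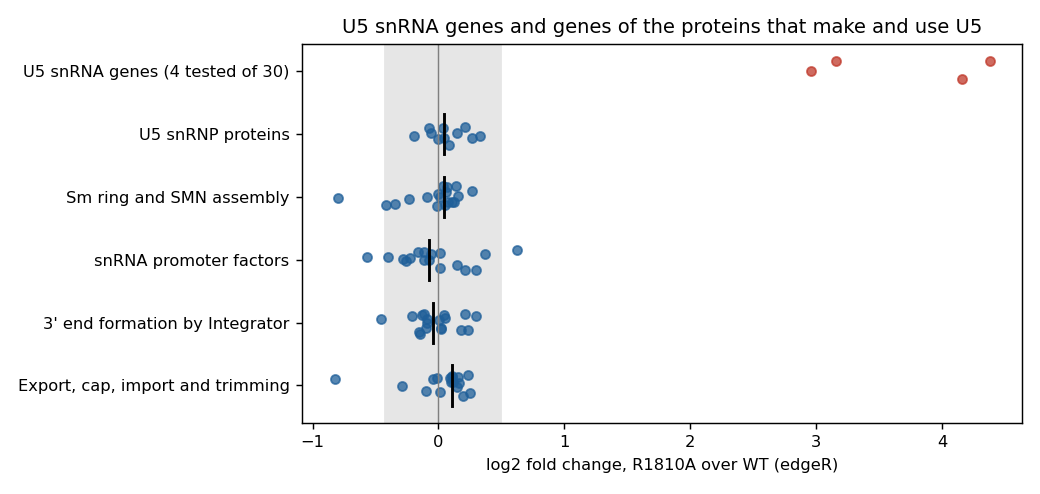
Log2 fold change, R1810A over WT, of the 4 tested U5 genes (red) and of 81 tested genes of proteins in the U5 pathway by list (blue, with the list median as a bar); the grey band spans the 5th to the 95th percentile of all genes tested. The U5 genes lie at 2.96 to 4.38, and the protein genes lie between -0.82 and 0.63.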

How the data were processed

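The deposited files hold a read count, an RPKM value, a total read number and a gene length for each of 51714 gene identifiers in each library. Per the submitters' processing notes, the aligner was Bowtie and the genome build hg19. No source used here gives the counting program, annotation, read length, use of strand or handling of multiply matching reads. Per the file headers the counts are the authors' own, and their whole-number values were used as deposited. The deposited RPKM values were the counts scaled by length and total reads, which held for all entries to a relative tolerance of 0.0001. Symbols came for 40926 identifiers from a table of current names and GENCODE release 29 (GRCh38). U5 sequences came from its transcripts, and 29 of 30 had the deposited length. The letters of the U5 genes and 1 B cell marker are not reported here.

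R1810A was compared with WT in edgeR 4.0.16 (R 4.3.3) with filterByExpr, TMM scaling, the quasi-likelihood test and Benjamini-Hochberg adjustment over 10674 genes, with group as the only term. The SE printed is the absolute log2 fold change over the root of F. DESeq2 1.42.0, limma-voom (limma 3.58.1), other scalings, no filter, a replicate block and leaving out each library were alternatives. Alignments for identity used Biopython 1.88. The U5 members and all lists were chosen with earlier results of these data known. Named are the U5 members, the 8 most alike profiles, and of each protein list the called genes or the 2 of smallest p, plus PRPF8, SNRNP200 and EFTUD2.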

Additional observations from a re-analysis of the deposited data

How the results depend on the processing

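Every one of the 44 log2 fold changes computed for RNU5E-1, RNU5B-1, RNU5F-1 and RNU5A-8P under the alternatives was above 0, from 1.83 to 4.86. These values are refits of the same libraries for genes that this contrast chose, so nothing is read from their sign. For the U5 sum, omitting 1 library gave 2.44 to 3.58, and the remaining alternatives gave 2.999 to 3.79. The difference in U5 share of gene counts, 0.0345 percentage points, was 0.0202 to 0.0488 with 1 library omitted, and it was 0.0177 of total reads. The difference in the RNU5E-1 share of U5 reads ran from -13.0 to -4.46. Of all genes, 37 were called higher and 1 lower. Without the filter these were 78 and 7, with the deposited total reads 37 and 5, with DESeq2 39 and 2, and with limma-voom 24 and 1. With a library left out, 2 to 113 were called higher and 0 to 40 lower. Of U5 genes, 3 were called higher, 5 without the filter (RNU5B-1 and RNU5D-1 in addition), and 0 to 6 with a library left out. The 0 came without WT replicate 2 and the 6 without R1810A replicate 2. Since this contrast chose the U5 genes, these counts describe the settings and say nothing of stability. The cause of these shifts was not tested. Deviations of libraries with the same replicate number correlated at -0.040 over 10674 genes. No pairing by number showed in this measure, which holds counting noise and cannot exclude one. With the replicate block 73 genes were called higher and 4 lower, RNU5B-1 among the higher, and it changed no call in the protein lists. The deposited total reads moved the median log2 fold change of all genes to -0.13, and the list medians then lay between -0.20 and -0.01. Low WT counts, 0 to 10 reads for each U5 gene except RNU5E-1, limit the size of any fold.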
